A study of Danio rerio with 6 samples.

Results

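The endoplasmic reticulum (ER) chaperone genes described here are calr3a, calr3b, hspa5, hsp90b1, pdia4, pdia6, canx, xbp1, sdf2l1 and dnajb11, which were chosen by name. Rows for 10 of 10 were found among the 31417 gene names of the count tables, and they held 3719 unique molecular identifiers (UMIs) in the wells kept. The data are MARS-seq libraries of cells from the zebrafish pituitary, prepared so as to enrich the neurohypophysis, its posterior lobe. MARS-seq sorts single cells into plates and counts UMIs at the 3' ends of transcripts, so a count does not scale with transcript length. The fish were of strain AB and carried Tg(pomca:EGFP), in which pomca regulatory sequence drives EGFP in pomca-expressing cells. Before dissection, fish of every age were injected with a fluorescent dipeptide (β-Ala-Lys-Nε-AMCA, 4.6 mM), at 5 µl in 37-day-old juveniles (37 days post-fertilization, dpf) and 10 µl in males of 5 or 7 months. The cells of an age came from 5 pituitaries that were pooled, and filled 2 plates with 384 wells on each. The plates of an age are therefore not separate groups of fish, and SDs and p-values measure the spread between plates.

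In animal cells the ER folds the proteins that enter the secretory pathway. Calreticulins and calnexin hold glycoproteins by their sugars until they fold, hspa5 (BiP) and hsp90b1 (GRP94) bind exposed peptide stretches, and protein disulfide isomerases form and exchange disulfide bonds. The transcription factor made from xbp1 raises the expression of many of these genes when unfolded protein accumulates. Endocrine cells that package large amounts of peptide hormone, and skeletal and connective-tissue cells that secrete collagen, depend on this machinery, whereas pituicytes are the glia of the neurohypophysis.

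Of 2304 wells, 1389 had at least 400 UMIs and at most 30% of UMIs from the 13 rows named mt-, and were kept. This mitochondrial limit removed 1 well. Plates held 105793 to 1178471 UMIs, most at 37 dpf and fewest at 7 months, and 3 UMIs, the limit that a count of 0 allows, corresponded to 2.57 to 36.6 counts per 1000000 UMIs (CPM). The members held 799 and 1047 UMIs on the 37 dpf plates, 996 and 499 at 5 months, and 238 and 140 at 7 months. A set of 24 rows named AC024175, which the mitochondrial limit did not count, took 11.03% to 33.5% of a plate's UMIs. They took 39.9% and 50.7% of those in the ungrouped wells of the 5-month plates. Whether these rows are mitochondrial transcripts was not tested, so a kept well may hold more than 30% mitochondrial UMIs. The 4 adult plates share 1 listed sequencing batch, 1 of the 37 dpf plates is listed in another and the other is not listed. Age at 37 dpf and batch therefore cannot be told apart. No well barcode was shared between plates.

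Each kept well went to the first rule it met. Gonadotropin-rich wells had at least 5% of UMIs from gonadotropin genes (43 wells), pituicyte wells at least 5 cyp26b1 UMIs (158 wells), cartilage wells at least 2% from cartilage genes (84 wells), macrophage wells at least 1% from macrophage genes (93 wells) and stromal wells at least 2% from stromal genes (127 wells). Wells rich in keratin transcripts (94 wells) or globin transcripts (9 wells) were set apart from the 781 other wells, and 78 wells met several rules. The leading genes included genes of the rules, which are high by the grouping itself. These were lhb, cga and fshb in gonadotropin-rich, cyp26b1 in pituicyte, cd74a, cd74b and c1qc in macrophage, and cxcl12a and col5a2a in stromal wells. Leading genes outside a group's own rule included the granule genes scg3 and scg5 in gonadotropin-rich wells and ccl25b in stromal wells. In pituicyte wells they included crabp1a, slc16a9a and cyp19a1b, but also cfd, a gene of the stromal list. Cartilage wells were led by col10a1a, col11a2, col11a1a and col2a1a, all genes of their rule. The bone gene ifitm5 was also among their 10 leading genes. In these wells the 24 genes of the stromal list made up 8.54% of UMIs, against 6.91% for the cartilage list. Gonadotropin-rich wells were a 5-month population in practice, with 26 and 14 wells on the 5-month plates, 1 and 2 at 7 months and 0 at 37 dpf. Their globin genes were all at 0, their pituicyte markers summed to 0.0326% of UMIs and their stromal markers to 0.0260%. Cartilage wells came only from the 37 dpf plates (37 and 47 wells). Pooled over plates, other wells were a mixture led by muscle and erythroid genes such as pvalb2, actc1b and rhag. Globin was at 0 to 4.76% of their UMIs by plate. On the adult plates all other wells had under 1% globin, and leading genes were not taken by age.

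Summed over the 10 genes, gonadotropin-rich wells had the most chaperone transcripts. Their sums reached 4805 and 3798 CPM on the 5-month plates, against 1091 and 850.1 CPM in the other wells of the same plates. Over all plates with at least 10 wells of a group, the summed level averaged 4302 ± 712 CPM in gonadotropin-rich wells (SD, n = 2 plates), 2171 ± 584 in cartilage (n = 2), 2046 ± 274 in pituicyte (n = 4), 1995 ± 443 in macrophage (n = 4), 1838 ± 927 in stromal (n = 5), 1001 ± 111 in keratin-rich (n = 2) and 928 ± 267 CPM in other wells (n = 6). The gonadotropin-rich plates lay above every other group. Cartilage, pituicyte, macrophage and stromal plates overlapped and have no order among them, and all 4 of these groups averaged above the keratin-rich and other wells. Without the AC024175 rows in the totals, gonadotropin-rich wells averaged 5338 CPM and other wells 1411 CPM.

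**Figure D1:**
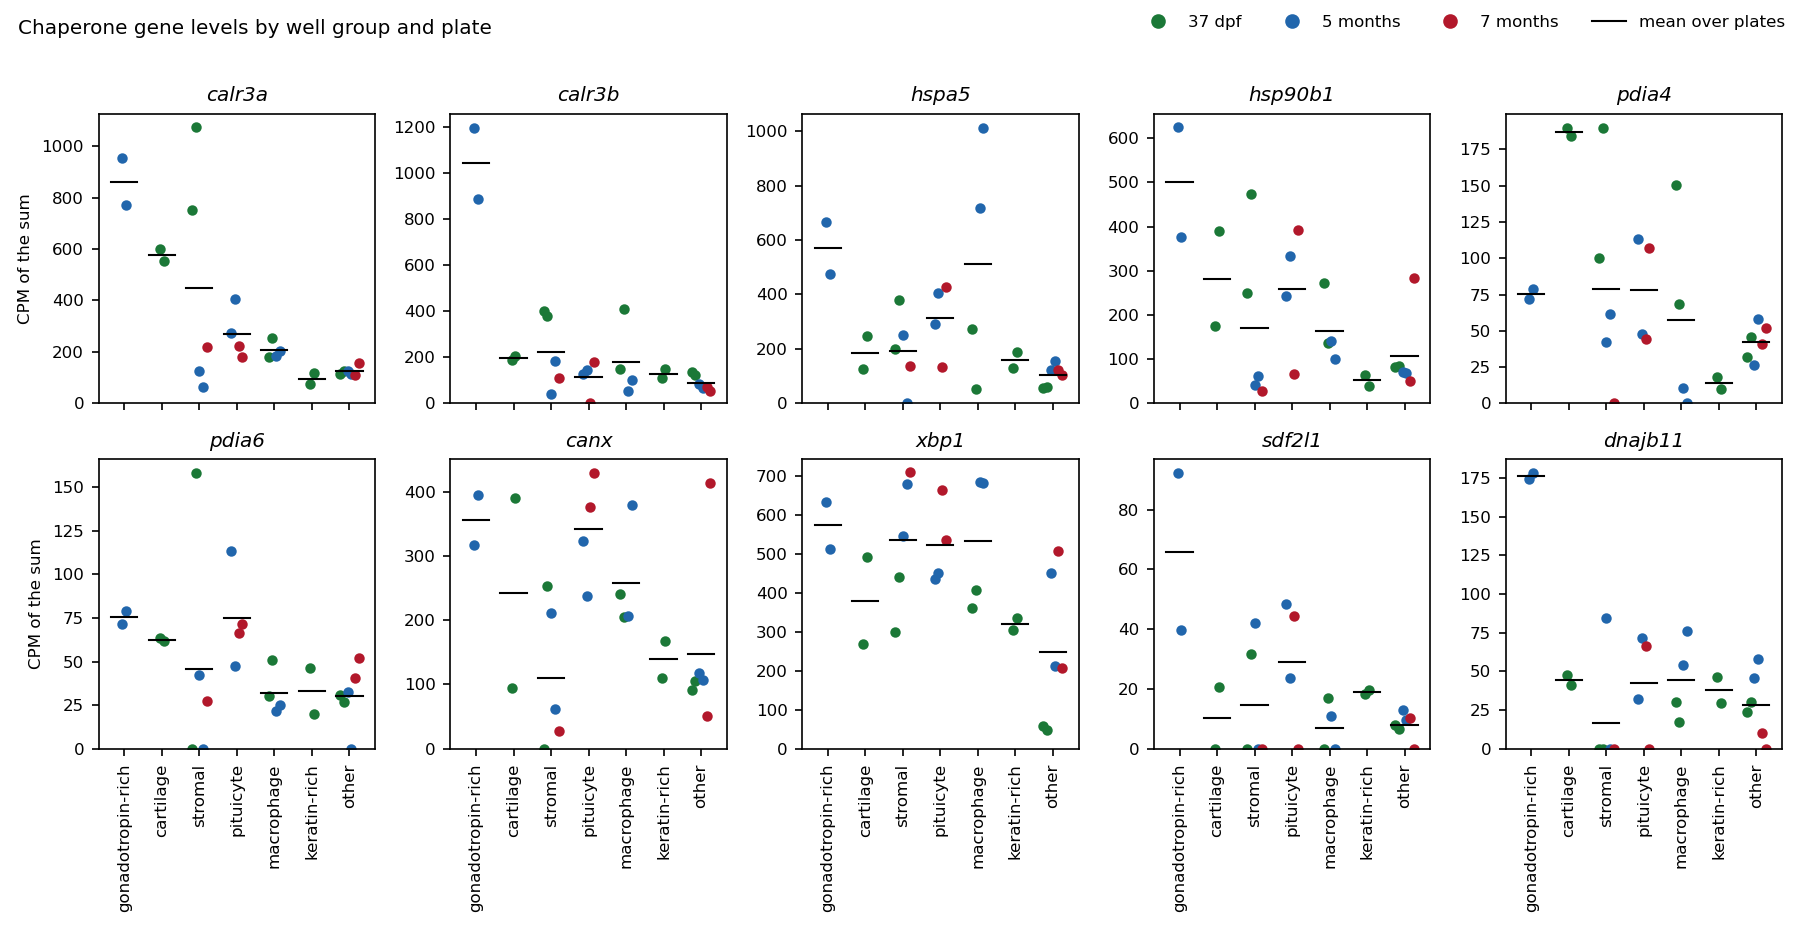
Level of each of the 10 chaperone genes (CPM of the summed wells, linear axis) by well group. A point is 1 plate with at least 10 wells of the group, coloured by age, and a line is the mean over plates. calr3b and dnajb11 are highest in the gonadotropin-rich sums with no overlap with another group, calr3a averages highest there but 1 stromal sum at 37 dpf is higher (1075 CPM), pdia4 averages highest in cartilage, and xbp1 averages 523 to 575 CPM in 4 groups.

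At least 1 member UMI was found in 43 of 43 gonadotropin-rich wells (100%), in 90.3% of macrophage, 82.1% of cartilage, 74.7% of pituicyte, 74.5% of keratin-rich, 68.5% of stromal and 60.4% of other wells. These shares follow depth as well as level, since a gonadotropin-rich well had a median of 3313 UMIs and an other well 1202. With every well thinned to 400 UMIs, the shares were 69.8% in gonadotropin-rich, 53.6% in cartilage, 49.4% in pituicyte, 45.2% in macrophage, 43.3% in stromal, 28.6% in other and 27.7% in keratin-rich wells. Thinning put macrophage wells behind cartilage and pituicyte wells and left gonadotropin-rich wells first.

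calr3b, a lectin chaperone that binds calcium, had 1199 and 890.2 CPM in the gonadotropin-rich wells of the 5-month plates, against 85.0 and 67.6 CPM in their other wells. Over the 6 plates, calr3b in other wells ran between 51.8 and 137 CPM, and the gonadotropin-rich sums did not overlap any sum of another group. Its paralog calr3a had 953 and 772 CPM in gonadotropin-rich wells, against 124 and 116 CPM in other wells of the same plates. calr3a in other wells was among the steadiest values in the set, 113 to 124 CPM on 37 dpf and 5-month plates and 112 and 155 CPM at 7 months. Next to the gonadotropin-rich wells, calr3a averaged 578 ± 33.97 CPM in cartilage wells (n = 2) and 447 ± 444 CPM in stromal wells (n = 5), where the 37 dpf plates had 752 and 1075 CPM and the adult plates 61.9 to 219 CPM, so 1 stromal sum was above the gonadotropin-rich sums. The membrane-bound relative canx had 318 and 396 CPM in gonadotropin-rich wells, 118 and 106 CPM in the other wells of those plates, and 238 to 429 CPM in pituicyte wells, so gonadotropin-rich and pituicyte sums overlapped for canx.

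Of the UMIs of the calr3a and calr3b pair, calr3b took 54.9% in gonadotropin-rich wells (95% Clopper-Pearson interval 49.0% to 60.6%), 28.4% in pituicyte wells (18.9% to 39.5%), 25.3% in cartilage wells (16.6% to 35.7%) 49.7% in other wells (45.2% to 54.2%) and 56.0% in keratin-rich wells (41.3% to 70.0%). The intervals are for all plates pooled and cover counting error only. By plate the share ran from 0% to 50.0% in pituicyte wells, from 22.7% to 61.5% in macrophage wells and from 25.0% to 54.8% in other wells. On the 5-month plates it was 40.6% and 36.8% in other wells, against 55.7% and 53.6% in gonadotropin-rich wells, with overlapping intervals. The 2 genes are paralogs, and how the authors' counting treated reads that match more than 1 gene is not given, so a split of reads between them is uncertain.

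The peptide-binding chaperones came next. hspa5 had 666 and 475 CPM in gonadotropin-rich wells, against 124 and 155 CPM in other wells of the 5-month plates, but macrophage wells of the same plates had 718 and 1013 CPM, so gonadotropin-rich wells were not the highest for this gene at 5 months. hsp90b1 had 625 and 376 CPM in gonadotropin-rich wells and 71.9 and 67.6 CPM in other wells of those plates; single sums of cartilage (389.6 CPM), stromal (474 CPM) and pituicyte wells (393 CPM) reached the lower of the gonadotropin-rich sums. The hspa5 co-chaperone dnajb11 had 174 and 178 CPM in gonadotropin-rich wells and 45.7 and 58.0 CPM in other wells, on 26 UMIs in all gonadotropin-rich wells. sdf2l1, a cofactor of hspa5 and its DnaJ partners, had 92.2 and 39.6 CPM in gonadotropin-rich wells and 13.1 and 9.66 CPM in other wells, on 11 and 16 UMIs, 36.4% of the 11 in a single well.

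Among the disulfide isomerases of the set, pdia4 did not follow this order. pdia4 averaged 187 ± 3.86 CPM in cartilage wells (190.0 and 185 CPM), against 42.4 ± 12.0 CPM in other wells (n = 6), and 75.4 ± 5.24 CPM in gonadotropin-rich wells, where it rested on 11 UMIs. One stromal sum, at 37 dpf, overlapped the cartilage sums for pdia4. pdia6 averaged highest in gonadotropin-rich wells, at 75.4 ± 5.24 CPM on 12 UMIs. It averaged 74.7 ± 27.7 in pituicyte wells and 30.4 ± 17.3 CPM in other wells, with overlap between all neighbours. xbp1, the transcription factor of the set, averaged 575 ± 85.5 CPM in gonadotropin-rich wells, 537 ± 170 in stromal, 535 ± 174 in macrophage, 523 ± 104 in pituicyte, 381 ± 158 in cartilage and 248 ± 194 CPM in other wells. In other wells it ran from 48.2 and 58.7 CPM at 37 dpf to 451 and 509 CPM on the first 5-month and 7-month plates. The second plate of both adult ages was lower than the first.

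The groups also differed in which members made up the total. calr3b took 24.5% of the member UMIs in gonadotropin-rich wells and 16.5% in other wells, while xbp1 took 13.2% in gonadotropin-rich, 29.6% in stromal, 29.1% in macrophage, 24.3% in pituicyte and 17.3% in cartilage wells. calr3a led in cartilage wells with 27.4%, and hspa5 took 25.4% in macrophage wells. No single member exceeded 16.7% in other wells.

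The groups were compared with edgeR's quasi-likelihood test on counts summed per plate and group, with plate as a block and Benjamini-Hochberg adjustment over 1475 genes. The scaling shifted whole comparisons, and each fold change is therefore also given relative to the median log2 change of all genes tested. That median was -0.08 for gonadotropin-rich against other wells, -0.24 for pituicyte, -0.57 for stromal, -0.18 for cartilage and -0.29 for macrophage wells. 6 members passed the filter on low counts, calr3a, calr3b, hspa5, hsp90b1, canx and xbp1; pdia4, pdia6, sdf2l1 and dnajb11 did not and were not called without the filter either. A member can pass the filter through the group where it is high, so the counts below describe these genes and support nothing beyond them.

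In gonadotropin-rich against other wells, 6 of 6 tested members were called higher, where 8.95% of all genes tested were. The log2 fold changes were 4.26 ± 0.52 for calr3b (SE; adjusted p = 8.35e-08), 3.33 ± 0.50 for calr3a (7.65e-06), 3.11 ± 0.54 for hsp90b1 (5.36e-05), 2.26 ± 0.57 for hspa5 (0.00543), 1.83 ± 0.55 for canx (0.0184) and 1.49 ± 0.45 for xbp1 (0.0184). Relative to the median of all genes they were 4.35, 3.42, 3.19, 2.34, 1.91 and 1.57 in the same order. For all 6 members the log2 change of the full fit was larger than that of every fit with 1 plate left out. Those fits gave 2.88 to 4.12 for calr3b, 2.17 to 3.05 for calr3a, 1.64 to 2.95 for hsp90b1 and 0.84 to 2.08 for hspa5. calr3b was called in 26 of 26 alternative settings, calr3a in 26 of 27, hsp90b1 in 25 of 26 and hspa5 in 16 of 26, whereas canx and xbp1 were called in 4 of 26 and 4 of 27. Without the first 5-month plate, which holds 26 of the wells, calr3a was at 2.17, hsp90b1 at 1.64 and hspa5 at 0.84, none past the threshold, and hspa5 was also lost without the second 7-month plate (1.74) and with size factors (1.91). canx and xbp1 lost their calls with size factors (1.49 and 1.07), with library size alone (1.59 and 1.22) and without any 1 of the plates (0.96 to 1.54 and 0.66 to 1.03). Within the adult plates alone, calr3b (3.38), calr3a (2.48), hsp90b1 (2.19) and hspa5 (1.74) remained past the threshold, and canx (1.27) and xbp1 (0.57) did not. With the AC024175 rows left out, the log2 changes of calr3b and calr3a were 3.62 and 2.71.

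Against pituicyte wells, the glia, gonadotropin-rich wells were higher in 3 of the 6 tested members, where 9.42% of genes were: calr3b by a log2 fold change of 3.82 ± 0.60 (edgeR adjusted p = 8.15e-06), calr3a by 2.17 ± 0.54 (0.00347) and hsp90b1 by 1.75 ± 0.56 (0.0240). Relative to the median of all genes, these changes were 3.74, 2.09 and 1.67. calr3b was called in 26 of 26 alternatives and calr3a in 16 of 27. calr3a lost its call without the first 5-month plate (1.15), without the second (2.102) and without the second 7-month plate (1.54), and hsp90b1 lost its call without any 1 of the plates (0.59 to 1.93). The differences in hspa5 (1.34 ± 0.62), xbp1 (0.87 ± 0.50) and canx (0.74 ± 0.59) did not pass the threshold.

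**Figure D2:**
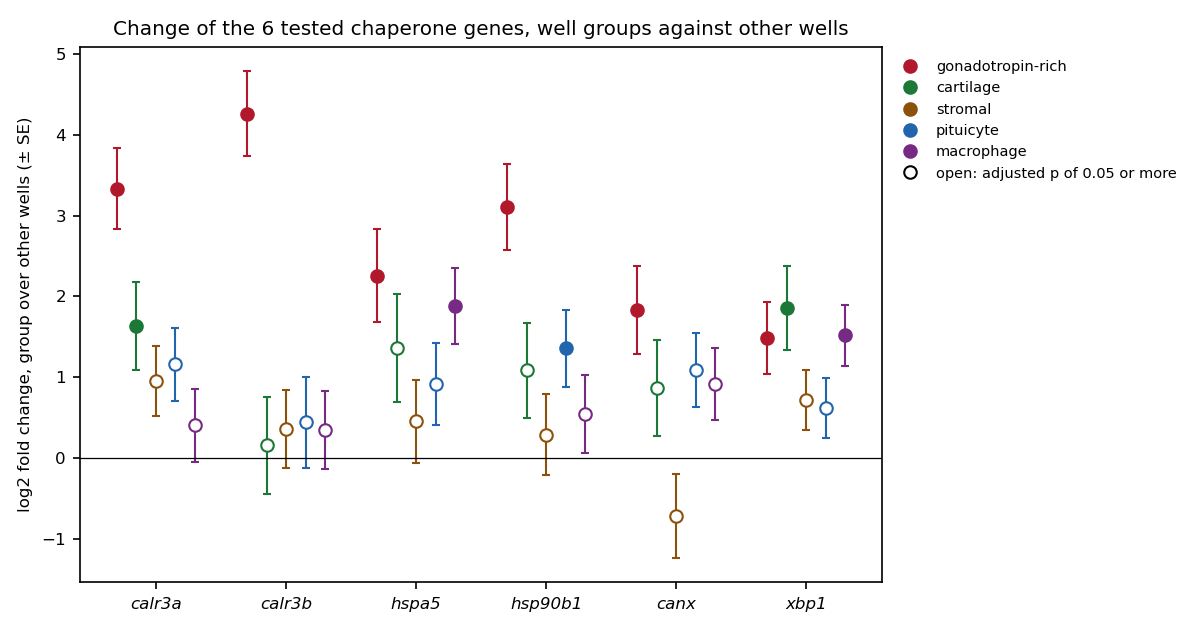
log2 fold change (± SE, edgeR) of the 6 tested chaperone genes for 5 well groups over other wells. Filled points have an adjusted p under 0.05. calr3b stands apart in gonadotropin-rich wells at 4.26, against 0.16 to 0.44 in the 4 other groups, while xbp1 is called in gonadotropin-rich, cartilage and macrophage wells.

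Outside gonadotropin-rich wells the calls were few and depended more on the setting. In cartilage against other wells (11.5% of genes called higher), xbp1 at 1.86 ± 0.51 (edgeR adjusted p = 0.00830) and calr3a at 1.64 ± 0.55 (0.0315) were higher, which is 2.04 and 1.82 relative to the median. xbp1 was called in 21 of 27 alternatives and calr3a in 9 of 27. Leaving out either 37 dpf plate ended both calls, with xbp1 at 1.51 and 0.92 and calr3a at 0.62 and 1.23, and calr3a also lost its call without the first 5-month plate (1.09) or either 7-month plate (1.27 and 1.58), and with wells of at least 1% globin left out (1.099). Within the 37 dpf plates alone, where all cartilage wells lie, 5 of 7 tested members were called higher, xbp1 (3.03), calr3a (2.55), pdia4 (2.498), hsp90b1 (1.95) and hspa5 (1.88), where 25.6% of genes were. The other wells of these plates held erythroid cells in number: those with at least 1% globin made up 58.8% and 66.6% of their UMIs and had 395 and 407 CPM of summed members, against 967 and 1156 CPM in the rest.

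In macrophage against other wells (19.1% of genes called higher), hspa5 was at 1.88 ± 0.47 (edgeR adjusted p = 0.00151) and xbp1 at 1.52 ± 0.38 (0.00131), or 2.18 and 1.81 relative to the median. hspa5 lost its call without the first 5-month plate (1.06), and xbp1 without either 37 dpf plate (0.89 and 0.73). By age, hspa5 was called within the adult plates (2.02) and not within the 37 dpf plates (1.53), and xbp1 within the 37 dpf plates (3.08) and not within the adult plates (0.55). Tested directly, the hspa5 excess did not differ between 37 dpf and 5 months past the threshold (-1.11 ± 0.83, edgeR interaction term, adjusted p = 0.518). That of xbp1 did (2.08 ± 0.57, 0.0157), but not with wells of at least 1% globin taken out of the other wells (0.83, 0.580). calr3b (1.41) and calr3a (1.14) were also called within the 37 dpf plates, where 27.6% of genes were higher. In pituicyte against other wells (8.68% of genes higher), hsp90b1 was higher at 1.36 ± 0.48 (edgeR adjusted p = 0.0497; 1.60 relative to the median), a call found in 9 of 26 alternatives. It was lost within the adult plates (1.02) and without either 37 dpf plate, either 5-month plate or the first 7-month plate (1.02 to 1.39). calr3a at 1.16 ± 0.45 and canx at 1.09 ± 0.46 did not pass.

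In stromal against other wells (13.4% of genes called higher), 0 of the 6 tested members passed edgeR's adjusted threshold, and 1, calr3a, had an unadjusted p under 0.05. calr3a was at 0.95 ± 0.43 and xbp1 at 0.72 ± 0.37, but relative to the median of all genes these were 1.52 and 1.29, and under size factors, library size alone and DESeq2 calr3a (1.47, 1.71 and 1.41) and xbp1 (1.21, 1.495 and 1.22) were called higher. Under these scalings most stromal calls of any gene were also in the higher direction, 74.0% with size factors and 82.7% with library size alone, against 38.1% with TMM. Within the 37 dpf plates alone 5 of 7 tested members were called higher, calr3a at 2.94, xbp1 at 2.80, hspa5 at 2.34, hsp90b1 at 2.14 and calr3b at 1.55, where 27.2% of genes were. Within the adult plates calr3a was at -0.22 and xbp1 at 0.27, neither called.

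The rest of the ER pathway was described with lists of genes that share no member with the set. Gonadotropin-rich wells, where 8.95% of all genes tested were called higher, were higher in the genes that bring proteins into the ER. Of 13 tested translocation and N-glycosylation genes 11 were called higher and 0 lower, with a median log2 change of 1.93 against -0.08 for all genes. These included the translocon-associated ssr2 (2.35 ± 0.51) and ssr3 (2.21 ± 0.48), the translocon channel subunit sec61g (1.71 ± 0.38) and the signal peptidase subunit spcs3 (2.62 ± 0.72). Of all 1475 genes, 132 were called higher, 60 with size factors and 91 with library size alone. The count of translocation genes moved with the setting. It was 6 of 13 with size factors or library size alone, with medians of 1.57 and 1.70. Without the AC024175 rows it was 4 of 14 (median 1.28). It was 0 of 14 and 0 of 20 without the first and the second 5-month plate and 1 to 4 without any 1 of the other plates, with medians of 1.01 to 1.46. Of 10 other ER chaperones and folding enzymes, 5 were higher and 0 lower (median 1.76). The isomerase pdia3 had a log2 change of 3.87 ± 0.49, with 1374 CPM in gonadotropin-rich wells and 103 CPM in other wells, and p4hb, the first disulfide isomerase described, had 2.35 ± 0.44, with 724 and 175 CPM; hyou1, an ER Hsp110, had 2.85 ± 0.70 and the prolyl isomerase ppib 1.78 ± 0.42. Without the first 5-month plate 1 of 11 was called, without the second 1 of 12, and 3 were called without the second 37 dpf plate or the first 7-month plate.

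Genes of the unfolded protein response were less uniform. The main counts of this paragraph stand beside 8.95% of all genes tested called higher in gonadotropin-rich wells. In gonadotropin-rich wells 3 of 7 tested were higher, chac1 at 3.44 ± 0.44 (1405 CPM, against 230 CPM in other wells), atf6 at 2.31 ± 0.67 and atf4a at 1.37 ± 0.47; chac1 is induced downstream of ATF4, and atf6 encodes an ER stress sensor. The count was 1 of 7 with size factors, 1 of 7 without the clone-named rows and 1 without any 1 of the plates. Of the ER-associated degradation genes, os9, a lectin that marks misfolded glycoproteins, was higher at 3.75 ± 0.89, 1 of 2 tested. Collagen-processing genes were not shared: 1 of 5 was higher, ppib, which also stands in the folding-enzyme list, and the list's median was -1.31. Cytosolic chaperones gave 4 of 13 higher, the heat-shock genes hsp70.3 (2.09 ± 0.47), hsp70.2 (1.99 ± 0.47), hsp90aa1.2 (2.01 ± 0.48) and hsp70.1 (1.90 ± 0.54), and 0 of 13 with size factors, without the first 5-month plate or without the second 7-month plate. Calls in this list were not limited to gonadotropin-rich wells. Of 13 tested, 5 were higher and 1 lower in pituicyte wells (8.68% of all genes higher). In cartilage wells 4 were higher and 1 lower (11.5%), in stromal 2 and 6 (13.4%) and in macrophage wells 1 and 0 (19.1%). The hsp70 genes are close paralogs whose counts are uncertain for the same reason as the calr3 pair. Their part in the ER chaperone levels was not tested.

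**Figure D3:**
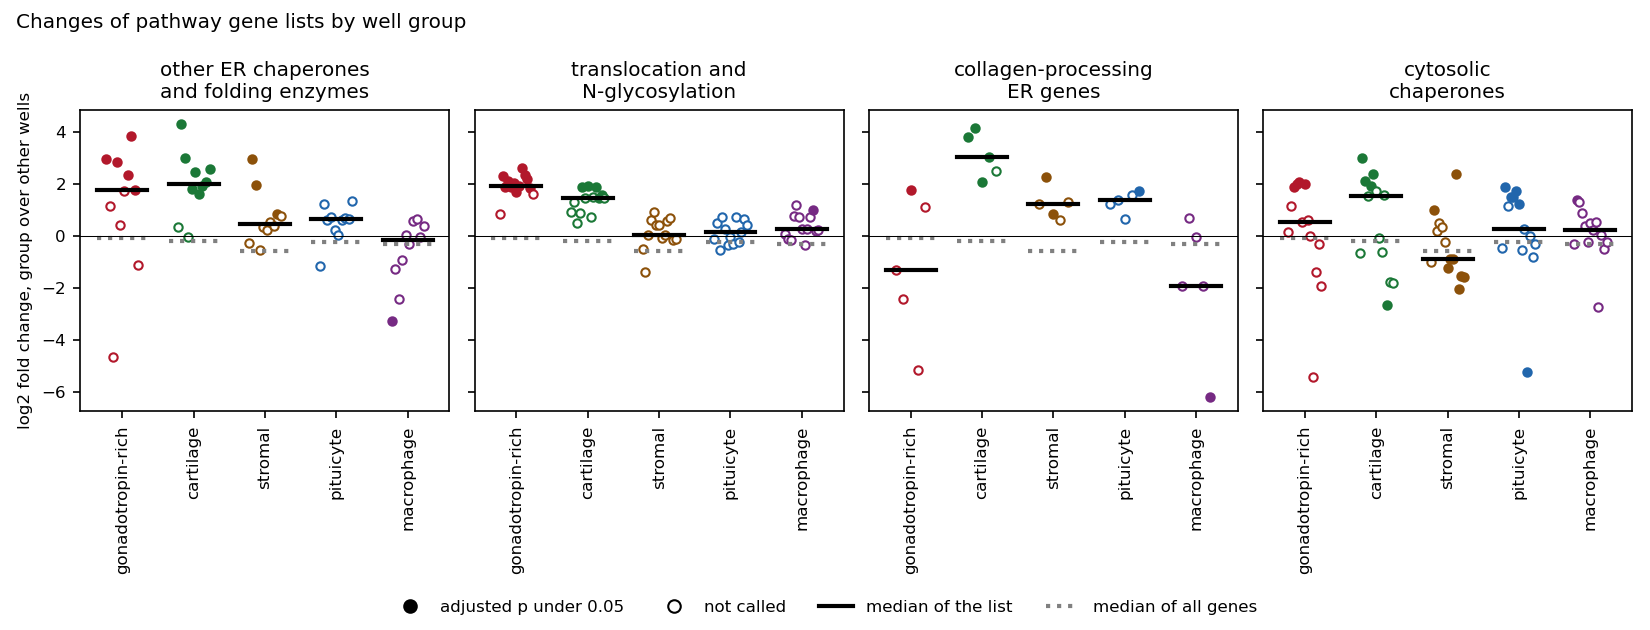
log2 fold change (edgeR, each point 1 gene) of 4 pathway lists in each well group over other wells. Filled points were called, the solid line is the median of the list and the dotted line the median of all genes tested. Translocation genes are shifted in gonadotropin-rich wells (median 1.93) and cartilage wells (1.46), and collagen-processing genes in cartilage wells (3.06).

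Cartilage wells, where 11.5% of all genes tested were called higher, combined folding enzymes with collagen-processing genes. Of 10 other ER chaperones and folding enzymes 8 were higher and 0 lower (median 2.01, against -0.18 for all genes), among them fkbp7 (4.31 ± 0.67), txndc5 (2.59 ± 0.64), ppib (2.08 ± 0.42) and p4hb (1.63 ± 0.44). Of 5 collagen-processing genes 4 were higher (median 3.06), the lysyl hydroxylase plod1a (4.16 ± 0.94), crtap (3.81 ± 1.00), the collagen chaperone serpinh1a (3.06 ± 0.83) and ppib. Translocation genes gave 5 of 13 (median 1.46), and the 3 counts fell to 1 of 10, 0 of 5 and 0 of 13 without the first 37 dpf plate and to 1 of 11, 0 of 6 and 0 of 15 without the second. Without the first 5-month plate the folding enzymes were at 5 of 11, and translocation genes were at 1 of 14, 2 of 20 and 2 of 16 without the first or second 5-month plate or the first 7-month plate. In stromal wells, where 13.4% of all genes were called higher, 3 of 10 folding enzymes were higher (fkbp7 2.98 ± 0.54, fkbp9 1.97 ± 0.67 and ppib 0.86 ± 0.32) and 0 of 13 translocation genes, 1 of them at an unadjusted p under 0.05. Pituicyte wells (8.68% of genes higher) had 0 of 10 and 0 of 13 called in these lists by edgeR, with 0 at an unadjusted p under 0.05, and macrophage wells (19.1% of genes higher) had 0 of 10 folding enzymes higher and 1 lower (calr, -3.24 ± 1.25) and 1 of 13 translocation genes higher (ssr3, 1.01 ± 0.39), beside the stress genes trib3 (2.74 ± 0.53) and ddit3 (1.82 ± 0.58).

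The relation to secretory load was measured as the share of UMIs from genes of secreted cargo (hormones, extracellular matrix and soluble secreted proteins). Cargo made up 18.4 ± 0.944% of UMIs in gonadotropin-rich wells, 16.3 ± 2.61% in cartilage, 5.56 ± 1.09% in stromal, 2.43 ± 1.65% in pituicyte, 1.07 ± 0.617% in other and 1.03 ± 0.190% in macrophage wells (SD over plates). The highest pituicyte share, 4.90%, came from the first 5-month plate, where the highest well had 48.0% cargo and the median well 1.22%. Over the pituicyte plates the median well had 1.21% to 1.44%. The cargo shares of the groups follow in part from the rules that set the groups, since the gonadotropin, cartilage, stromal and macrophage lists hold genes also counted as cargo. The cargo list was fixed and does not hold every secreted gene. Leading genes not in it include the chemokine genes ccl34b.1, ccl35.1 and ccl34a.4 of macrophage wells. They also include sfrp5 of pituicyte, ccl25b of stromal and scg5 of gonadotropin-rich wells. The shares therefore cover the listed genes only. Across the 25 sums of at least 10 wells, the members' level among UMIs outside cargo had a Spearman rho of 0.572 with the cargo share and a Pearson r of 0.689 on log2 scales. The points share plates and wells differ in depth, so this is a description. Without the gonadotropin-rich sums rho was 0.456 (23 sums), and without cartilage sums as well 0.351 (21 sums). The stromal and macrophage sums that remain were also grouped in part by cargo genes.

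The 2 groups with the most cargo had unequal chaperone levels. Outside cargo, the members reached 5941 and 4620 CPM in gonadotropin-rich wells and 2147 and 3020 CPM in cartilage wells. These gonadotropin-rich sums came only from adult plates and the cartilage sums only from plates of juveniles. The groups shared no plate, so their difference cannot be told apart from age and sequencing batch. For each 1000 cargo UMIs the members had 23.9 UMIs in gonadotropin-rich wells, 12.8 in cartilage, 33.6 in stromal, 72.7 in pituicyte, 123 in other and 185 in macrophage wells. The pituicyte value includes the well with 48.0% cargo. Macrophage and pituicyte sums overlapped the cartilage sums in member level, while their highest shares of listed cargo, 1.29% and 4.90%, lay below the lowest cartilage share of 14.4%. Leading chemokine genes of macrophage wells are not in the cargo list.

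**Figure D4:**
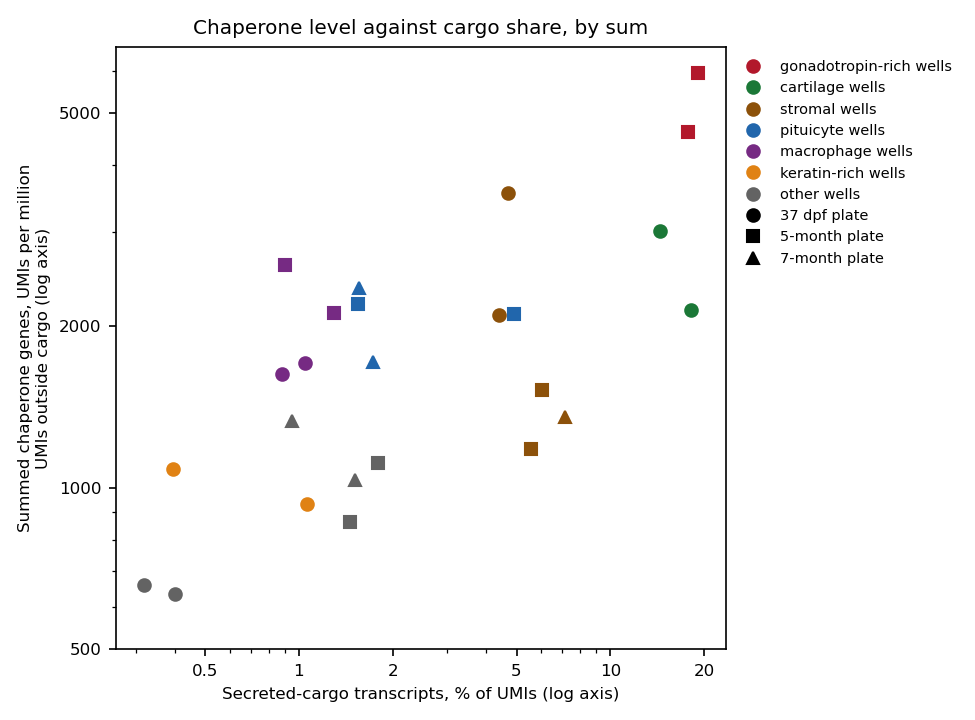
Summed chaperone genes (CPM of the UMIs outside cargo) against the share of UMIs from secreted-cargo genes, both on log axes. A point is 1 plate and group with at least 10 wells; colour gives the group and shape the age. Gonadotropin-rich sums lie at the top right, and cartilage sums have similar cargo and fewer chaperone UMIs. The former are all from adult plates and the latter all from plates of juveniles, so age and sequencing batch differ too. The levels of macrophage sums, at 1.03 ± 0.190% cargo, overlap those of cartilage.

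Within groups, the relation differed from group to group. Over wells of a plate, Spearman's rho was taken between member and cargo UMIs, each divided by the UMIs outside both. A shared denominator can by itself raise rho, and its part was not tested. The rho was 0.504 (26 wells) and 0.741 (14 wells) in gonadotropin-rich wells, 0.0474 to 0.235 in pituicyte, -0.124 to 0.306 in stromal, 0.0731 and -0.121 in cartilage and -0.348 to 0.352 in macrophage wells. In other wells it was 0.337 to 0.482 on 5 of 6 plates and -0.00229 on the second 7-month plate, which has 56 of these wells. Cargo share also rose with depth in gonadotropin-rich wells, with a rho of 0.496 and 0.741 between cargo share and UMIs, and wells with at least 10% gonadotropin UMIs had a mean rho of 0.0961. For other wells, rho between cargo share and UMIs was -0.685 and -0.652 at 37 dpf and -0.0618 to 0.357 on adult plates. At 37 dpf, other wells above the median cargo share had medians of 1180 and 1392 UMIs, and the rest 5480 and 6556. On the 5-month plates the highest other well had 27.2% and 14.1% cargo, against medians of 0.647% and 0.284%. The part of depth, of such wells and of globin-containing wells in the rho of other wells was not tested. Split at the median of the cargo share, gonadotropin-rich wells had 5008 CPM of members in the higher-cargo wells and 4517 CPM in the lower-cargo wells on the first 5-month plate, and 4177 and 3084 CPM on the second. Cartilage wells had 1363 CPM in higher-cargo and 2573 CPM in lower-cargo wells on the first 37 dpf plate. On the second they had 2425 and 2849 CPM, the opposite order. Cargo UMIs count in these totals and so lower the member CPM where cargo is high. Among UMIs outside cargo, cartilage wells had 1799 and 2722 CPM on the first plate and 3007 and 3038 CPM on the second. Gonadotropin-rich wells then had 6537 and 5193 CPM on the first 5-month plate and 5356 and 3419 CPM on the second. In edgeR tests of higher-cargo against lower-cargo wells, 0 of 5 tested members were called in stromal wells (1.29% of 622 genes called) and 0 in cartilage wells (4.98% called), and 0 had an unadjusted p under 0.05 in either; DESeq2 also called 0 of them. For calr3a the change was 0.21 ± 0.54 in stromal and -0.35 ± 0.57 in cartilage wells. Gonadotropin-rich wells were not tested in this way, since only 1 plate had at least 20 of them.

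Among themselves the members moved together to different degrees. Over the 25 sums, the Pearson r of each gene with the sum of the other members (log2 of CPM plus 20) was 0.69 for hsp90b1 and calr3a, 0.58 for hspa5, 0.48 for pdia6, 0.41 for sdf2l1, 0.40 for calr3b, 0.38 for canx, 0.33 for xbp1 and pdia4, and 0.28 for dnajb11. The low-count members have the noisiest values. Of 1425 other genes with at least 200 UMIs, those most like the summed members were pdia3 (r = 0.77), SERP1 (0.75), tmed10 (0.68), p4hb (0.66), hsp70.3 (0.65), fkbp5 (0.65), eno1a (0.63), sec61b (0.62), itm2ba (0.58) and dnajb1b (0.57). Of these, pdia3, p4hb and sec61b are in the fixed pathway lists of the ER, and hsp70.3 and dnajb1b in that of cytosolic chaperones.

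By age, over all kept wells of a plate, the sum of the chaperone genes was highest at 5 months. In this bulk view, more cells of a type and more RNA per cell cannot be told apart. The summed members averaged 852 ± 64.9 CPM at 37 dpf, 2088 ± 254 CPM at 5 months and 1437 ± 384 CPM at 7 months (SD, n = 2 plates each). Without gonadotropin-rich wells the sum was 1499 ± 61.5 CPM at 5 months and 1430 ± 385 CPM at 7 months. The plates of these ages then overlapped, at 1542 and 1455 CPM and at 1159 and 1702 CPM. calr3b was at 147 and 148 CPM in juveniles of 37 dpf, 328 and 249 CPM in fish of 5 months and 58.7 and 97.6 CPM in those of 7 months, and the 3 ages did not overlap. hspa5 had 76.7 and 89.2 CPM, 396 and 371 CPM and 122 and 207 CPM in the same order of ages, again without overlap. xbp1 was at 115 and 123 CPM in juveniles, 542 and 425 CPM in fish of 5 months and 548 and 390.5 CPM in those of 7 months, so its adult ages overlapped. dnajb11 had 27.2 and 28.3 CPM at 37 dpf, 75.1 and 80.3 at 5 months and 19.6 and 12.2 CPM at 7 months. canx averaged 278 ± 228 CPM at 7 months, against 219 ± 3.92 CPM at 5 months, and pdia6 46.4 ± 3.37 CPM at 7 months, against 38.4 ± 16.5 CPM at 5 months, so not every member was highest at 5 months. For hsp90b1 (58.7 and 281 CPM) and canx (117 and 439 CPM) the 7-month plates differed from each other by more than the ages did, with the second plate, the shallowest, the higher for both. The second 7-month plate was also highest among the other wells, with 285 CPM of hsp90b1 and 414 CPM of canx, against 50.9 CPM of each on the first. pdia4 stayed between 34.3 and 61.0 CPM and pdia6 between 26.8 and 50.1 CPM on the 6 plates, with the ages overlapping.

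Between 7 and 5 months, which share a batch, 3 of 9 tested members were called lower at 7 months, where 1.2% of 4411 genes were. The log2 fold changes were -2.22 ± 0.37 for calr3b (edgeR adjusted p = 0.0109), -1.54 ± 0.33 for hspa5 (0.0352) and -1.30 ± 0.31 for calr3a (0.0479), with a median of all genes of -0.06. dnajb11 was at -2.36 ± 0.58 (0.0567), canx at -0.05 ± 0.46 and xbp1 at -0.24 ± 0.29, none of them called. The 5-month plates held the gonadotropin-rich wells, which had 22.2% and 19.3% of those plates' UMIs and 81.3% and 69.2% of their calr3b UMIs, 61.6% and 50.7% of their calr3a UMIs. With gonadotropin-rich wells left out of every plate, calr3b was at -0.53, calr3a at -0.50 and hspa5 at -1.33, none past the threshold. Without either 5-month plate none of the 3 was past the threshold (calr3b -2.16 and -2.53, hspa5 -1.64 and -1.72, calr3a -1.34 and -1.54). hspa5 was also lost without the first 7-month plate (-1.42), and calr3a without either 7-month plate (-1.55 and -1.35). Both were lost with library size alone (hspa5 -1.29 and calr3a -1.07), with a minimum of 1000 UMIs per well and with wells thinned to 400 UMIs (-0.77 and -0.68), where calr3b at -1.41 was also not called. In all, hspa5 was called in 10 of 17 alternatives and calr3a in 9 of 17. Within pituicyte wells (0.0932% of 2147 genes called in either direction) and within other wells (1.68%), 0 of the 6 tested members were called between 7 and 5 months by edgeR, and 0 of the 6 had an unadjusted p under 0.05. Of the 4 members under the filter on low counts, dnajb11 in other wells was at -3.25 ± 1.31 without the filter, with an unadjusted p of 0.0130 and an adjusted p of 1.0, on 1 and 0 UMIs at 7 months, against 7 and 6 at 5 months. In these wells calr3a was at -0.64 ± 0.51 in pituicyte and -0.32 ± 0.51 in other wells, and hspa5 at -0.34 ± 0.62 and -0.66 ± 0.64. In simulated data the same tests recovered 15.5% (pituicyte) and 26.5% (other wells) of genes changed by a log2 of 2.

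**Figure D5:**
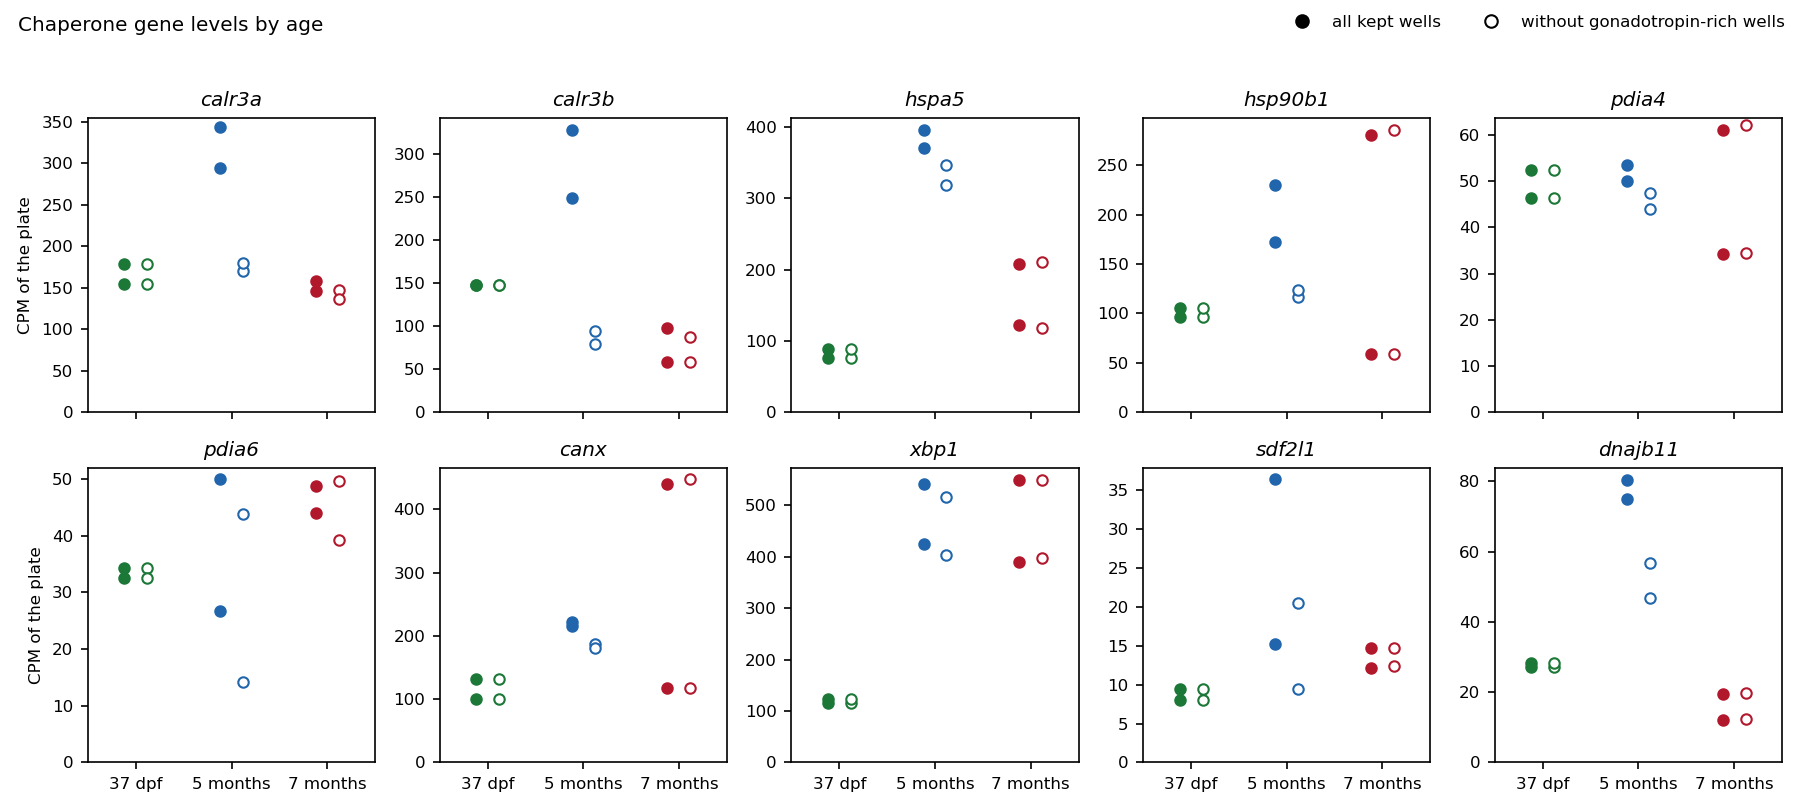
Level of each chaperone gene (CPM over all kept wells of a plate, linear axis) at 37 dpf, 5 months and 7 months. Filled points are all kept wells and open points the same plates without gonadotropin-rich wells. At 5 months calr3b falls to 79.0 and 94.8 CPM without those wells, against 328 and 249 CPM with them, while xbp1 stays at 515 and 403 CPM.

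Against 37 dpf, 7 of 9 tested members were higher at 5 months, where 24.3% of genes were called higher and 50.6% called in either direction. The largest were hspa5 at 2.39 ± 0.30 (edgeR adjusted p = 5.11e-05), xbp1 at 2.20 ± 0.28 (6.66e-05) and dnajb11 at 1.65 ± 0.37 (0.00301), and calr3a, calr3b and hsp90b1 were at 1.12 to 1.17. canx, also called (adjusted p = 0.0427), had 216 and 222 CPM at 5 months, against 99.9 and 131 CPM at 37 dpf. The calls of hsp90b1 and canx were lost without any 1 of the 37 dpf or 5-month plates (0.97 to 1.23 and 0.78 to 1.16), that of calr3a without either 37 dpf plate (0.88 and 1.08) and that of calr3b without either 37 dpf plate or the first 5-month plate (0.96 to 1.00). Other settings ended calls too. With wells of at least 1% globin left out, calr3a was at 0.46, hsp90b1 at 0.78 and canx at 0.62, and with gonadotropin-rich wells left out they were at 0.26, 0.43 and 0.86, none past the threshold. hsp90b1 (1.00) and canx (0.92) were also lost with library size alone, and with wells thinned to 400 UMIs calr3b (0.39), hspa5 (1.27), hsp90b1 (0.34) and canx (0.73) were not called. xbp1 was called in 17 of 17 alternatives and hspa5 in 16 of 17. At 7 months xbp1 was higher (1.96 ± 0.29, adjusted p = 0.000227) and calr3b lower (-1.08 ± 0.37, 0.0279), where 22.6% of genes were higher and 26.2% lower; without the first 7-month plate xbp1 was at 1.27, still called, and calr3b at -1.04, not called. Without gonadotropin-rich wells calr3b at 5 months was at -0.59 against 37 dpf. Of 15 tested cytosolic chaperones, 6 were higher and 6 lower at 5 months than at 37 dpf, with a median of -0.21. Those higher included the heat-shock genes hsp70l (5.41 ± 0.32), hsp90aa1.2 (5.33 ± 0.34), hsp70.1 (4.66 ± 0.37) and hsp70.2 (4.53 ± 0.30), and those lower the chaperonin subunits cct5 (-1.95 ± 0.29) and tcp1 (-1.71 ± 0.32). Of 10 tested unfolded protein response genes 6 were higher, among them ddit3 (2.12 ± 0.38), trib3 (1.94 ± 0.34), ppp1r15a (1.79 ± 0.29) and atf4b (1.46 ± 0.26). The part of these genes in the chaperone levels was not tested. The 37 dpf plates also held the globin-containing wells; with wells of at least 1% globin left out, the summed members at 37 dpf averaged 1304 ± 220 CPM.

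Of the groups with at least 10 wells on every 37 dpf and 5-month plate, only macrophage wells were tested between these ages. Stromal and other wells also had such sums. With stromal wells split at the median cargo share, their summed members ran from 1637 to 3770 CPM at 37 dpf and 958 to 1825 CPM at 5 months. Other wells with under 1% globin had 967 and 1156 CPM at 37 dpf and 1091 and 850 CPM at 5 months. hspa5 had 718 and 1013 CPM in the macrophage wells of the 5-month plates and 271 and 51.1 CPM in those of the 37 dpf plates, without overlap, and the log2 fold change was 2.78 ± 0.61 (edgeR adjusted p = 0.00560), where 1.12% of 2147 genes were called higher. It was called in 23 of 25 alternatives and lost without the second 37 dpf plate (1.89). The hspa5 levels of macrophage wells at 37 dpf rest on few UMIs. All 10 members together had 33 and 23 UMIs in higher-cargo and lower-cargo macrophage wells of the first 37 dpf plate. On the second they had 32 and 63. The heat-shock genes hsp90aa1.2 (2.77 ± 0.57), hsp70l (2.53 ± 0.59) and hsp70.3 (2.36 ± 0.48) and the stress gene ppp1r15a (2.74 ± 0.68) were higher in the same wells. calr3b was at -1.91 ± 0.68 and calr3a at -0.07 ± 0.50, neither called.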

How the data were processed

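MARS-seq libraries of single wells were measured on 6 plates, 2 for each of 3 ages, with groups taken from the labels. The values are raw UMI counts per gene and well as the authors deposited them, 100% whole numbers. The submitters' processing notes name bcl2fastq 2.15.0.4, Seurat 3.1.5 and the build danRer10; the aligner, the annotation and the treatment of reads that match several genes are not given in the sources used here. The chaperone genes and the gene lists were chosen with earlier results of these data known.

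Wells with under 400 UMIs or over 30% of UMIs from rows named mt- were left out. Wells were grouped by the thresholds given with the results, and doublets were not called; wells that met several rules were left out as an alternative. Levels are CPM of counts summed over the wells of a group on a plate, for sums of at least 10 wells. Tests used edgeR 4.0.16 (R 4.3.3, quasi-likelihood, TMM scaling, low-count filter, Benjamini-Hochberg adjustment, threshold 0.05). Group comparisons had plate as a block, and age comparisons compared 2 plates with 2. DESeq2 1.42.0 was an alternative, with other scalings, filters, well rules, UMI minima, thinning and plates left out. The code was tested on simulated data with a log2 change of 2 in some genes. False genes made up 22.7% and 19.1% of calls for 5 and 7 months against 37 dpf. They made up 13.8% for 7 against 5 months in all wells, and 2.38% for gonadotropin-rich against other wells. Of the changed genes, 20.5% were recovered for gonadotropin-rich against other wells and 78.5% for 5 months against 37 dpf. Intervals are exact (Clopper-Pearson, 95%) and cover counting error only. Likeness used log2 of CPM plus 20. Python 3.11.15 with numpy 2.4.6, scipy 1.17.1, pandas 2.3.3 and matplotlib 3.10.9 was used.

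The text names the 10 members, up to 4 called genes with the smallest p of each pathway list and comparison, and the 10 genes most like the summed members. Genes that define the groups are named to check them, and calr in macrophage wells and os9 because their lists had a single call. Promoter and protein sequences are not used here.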

Additional observations from a re-analysis of the deposited data

Results flagged for a closer look

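The excess of calr3a in stromal over other wells differed between 37 dpf and 5 months by 3.40 ± 0.77 on the log2 scale (edgeR interaction term, adjusted p = 0.00862), being larger at 37 dpf. With wells of at least 1% globin taken out of the other wells, a setting chosen after seeing the data, the difference was 2.42 (adjusted p = 0.187). The same interaction for xbp1 was 2.148 ± 0.64 (adjusted p = 0.0452), and 1.01 (0.597) without those wells. For xbp1 in macrophage over other wells the difference between 37 dpf and 5 months was 2.08 ± 0.57 (edgeR adjusted p = 0.0157), and 0.83 (0.580) without those wells. The 3 differences set 37 dpf against 5 months, so age and sequencing batch cannot be told apart in them.

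The 914 wells with under 400 UMIs, which no comparison uses, held 133 UMIs of the chaperone genes, or 1066 CPM, against 1183 CPM in the kept wells.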

How the results depend on the processing

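Recomputing the members called in a comparison, 9 that were not and the summed levels gave 944 values, 818 of them for single members. A member was the same if it kept its direction and side of the threshold. A summed level was the same if it stayed within 1 SD of the main value. By these rules 706 values were the same and 6 summed levels moved. Among single members 201 values lost a call, 28 gained one and 3 reversed. The tested members outside this set, none called in its main comparison, gave another 1161 values, and 106 of them had the opposite sign to the main one. calr3a in stromal against other wells was -0.22 with adult plates only, and against 37 dpf at 5 months calr3a was -0.24 with wells thinned to 400 UMIs and calr3b -0.59 with gonadotropin-rich wells left out; the cause was not tested beyond what these settings remove. Counts of called genes were 209 for gonadotropin-rich, 205 for pituicyte, 520 for stromal, 234 for cartilage and 528 for macrophage against other wells, 286 for gonadotropin-rich against pituicyte wells, 98 for 7 against 5 months, 2234 and 2150 for 5 and 7 months against 37 dpf, 2 and 36 for 7 against 5 months in pituicyte and other wells, 50 for macrophage wells at 5 months against 37 dpf, and 8 and 31 for higher-cargo against lower-cargo stromal and cartilage wells. In the same order, leaving out 1 plate gave 68 to 279, 134 to 226, 292 to 558, 97 to 485, 576 to 792, 108 to 332, 14 to 182, 1236 to 2944, 1346 to 2204, 0 to 8, 5 to 57, 26 to 52, 0 to 10 and 18 to 31. Where 1 plate was left in a group, that plate was assumed to vary like the other groups.

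Thinning to 400 UMIs, which leaves fewer counts, gave 68, 76, 93, 57, 103, 76, 44, 344, 417, 7 (pituicyte wells by age), 13, 4 and 6 called genes, and shares of wells with a member UMI averaged over plates of 70.33% in gonadotropin-rich, 49.1% in pituicyte, 43.8% in stromal, 52.2% in cartilage, 45.6% in macrophage and 27.8% in other wells, against 100%, 75.0%, 69.0%, 81.2%, 94.4% and 54.2%. DESeq2 gave 88 for gonadotropin-rich, 280 for stromal and 155 for cartilage against other wells, 183 for gonadotropin-rich against pituicyte wells, and 4 and 7 for the stromal and cartilage cargo split. Size factors gave 134 for gonadotropin-rich against other wells and 4 for pituicyte wells by age. With no filter, 931 were called for macrophage wells, 169 for 7 against 5 months, 4 for pituicyte wells by age and 4 for the stromal cargo split. A minimum of 1000 UMIs gave 119 for pituicyte and 229 for stromal wells and 53 for 7 against 5 months, with shares of 87.8% in pituicyte, 88.9% in stromal and 96.2% in cartilage wells and a rho of 0.282 in stromal and -0.507 in cartilage wells.

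A gonadotropin share of 10% gave 70 for gonadotropin-rich, 817 for macrophage and 171 for gonadotropin-rich against pituicyte wells and a rho of 0.0961, and a share of 2% gave 795 for macrophage wells and 4 for pituicyte wells by age. Requiring 3 cyp26b1 UMIs gave 4 for pituicyte wells by age, and 10 gave 1, with 22 for other wells by age and a rho of -0.0195 in pituicyte wells. Halved thresholds gave 137 for gonadotropin-rich, 366 for cartilage, 1 for pituicyte and 20 for other wells by age and a share of 84.7% in macrophage wells; doubled ones gave 95 for stromal, 1 for pituicyte wells by age, 32 for macrophage wells by age and a rho of -0.144 in stromal wells. Sums of 20 wells gave 95 for gonadotropin-rich, 519 for cartilage, 912 for macrophage and 159 for gonadotropin-rich against pituicyte wells, and sums of 5 wells gave 1037 for macrophage, a rho of 0.263 in pituicyte wells and a share of 88.0% in macrophage wells. Leaving out cargo and marker genes gave 338 for stromal and 1 for pituicyte wells by age, wells of several rules 0 for pituicyte wells by age and a rho of 0.245 in cartilage wells, and globin-rich and keratin-rich wells placed among the other wells 323 for stromal wells. The cargo list of the group gave 14 for the stromal cargo split. Chosen after seeing the data, a globin threshold of 1% gave 1288 and 1344 for 5 and 7 months against 37 dpf and 1 for pituicyte wells by age, gonadotropin-rich wells left out 15 for 7 against 5 months, adult plates 209 for stromal wells, 37 dpf plates 472 for cartilage wells, and 10 wells per plate 18 for the cartilage cargo split.

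Scaling changed the balance of directions. Genes called higher and lower were 132 and 77 for gonadotropin-rich against other wells with TMM, 60 and 74 with size factors and 91 and 92 with library size alone. For pituicyte wells they were 128 and 77, 137 and 36, and 184 and 40, for stromal wells 198 and 322, 271 and 95, and 340 and 71, and for gonadotropin-rich against pituicyte wells 139 and 147, 71 and 174, and 76 and 204. With TMM and library size alone they were 45 and 53, and 83 and 39, for 7 against 5 months, 12 and 24, and 39 and 11, for other wells by age, 24 and 26, and 16 and 36, for macrophage wells by age, and 19 and 12, and 17 and 20, for the cartilage cargo split. No paired analysis was possible because both plates of an age hold cells of the same pool, so their numbers pair nothing between ages; the group comparisons had plate as a block.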
